A study of Arabidopsis thaliana with 6 samples.

Results

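The heat shock protein genes and the heat shock factor gene HSFA2 of Arabidopsis thaliana were followed here across 6 transgenic lines. The set holds 10 loci, read by 11 features among the 37118 features for 32627 loci on the arrays. Its members were chosen by locus identifier, with earlier results of these data known. They are 7 small heat shock proteins, HSP70 (AT3G12580), HSP101 and HSFA2, which has 2 features, and the other 9 loci have 1 feature each.

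The study compared 3 lines that carried 35S::VvMYBPAR with 3 lines that carried an empty vector. The transgene encodes a grapevine transcription factor of the MYB family, driven by the cauliflower mosaic virus 35S promoter, which is active in most tissues. The MYBPAR lines were PAR18-2, PAR9-2 and PAR36-4, and the empty vector lines were Cont1-1, Cont2-3 and Cont5-1. All were of ecotype Columbia, were sampled as whole plants at 3 weeks of age, and had been grown at 22 °C and 60% humidity with 16 h of light per day (80 µmol m-2 s-1) on agar plates that held 30 mg/l kanamycin, so both groups were under the same selection and neither group was given a heat treatment in the labels. From every line, 1 RNA sample was hybridised to 1 array in 1 colour. The number of plants in a sample is not given in the sources used here, and in whole-plant RNA a change in the share of a cell type and a change in RNA per cell cannot be told apart.

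Heat shock proteins are molecular chaperones that keep damaged proteins from aggregating or return them to their folded form. Small heat shock proteins hold unfolding proteins without using ATP, HSP70 refolds them with ATP, and HSP101, of the Clp family, pulls aggregated proteins apart. In plants heat induces most of them through heat shock transcription factors, and HSFA2 is a factor that is itself induced by heat and by other stresses and that prolongs the response.

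Median RMA values (intensity on a linear scale) lay between 859 and 887 on the 6 arrays. Slide and position were read from the image names of the arrays, which put all 6 on 1 slide, and the sample labels give neither. Levels are given below as log2 of the RMA value, and differences as log2 differences, MYBPAR minus empty vector. The mean log2 levels of all features fell into a dim and a bright mode separated at 7.08, and a signal below that separation may be background. Of the 11 member features, 4 were above the separation on every array, 2 (AT1G53540 and HSP21) were below it on every array, and 5 lay on both sides. No member was filtered out. PAR9-2 stood apart from the other lines in its clock genes, where CCA1, LHY and PRR9 had a mean deviation of -4.63 from their 6-array medians, and it was the highest array in 23.8% of all features.

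HSFA2 levels were spread more widely among the empty vector lines than their mean differed from that of the MYBPAR lines. Its feature 1 read 12.70 in Cont1-1, 7.83 in Cont2-3 and 9.94 in Cont5-1, against 7.71 in PAR18-2, 8.91 in PAR9-2 and 8.65 in PAR36-4. Cont1-1 was the highest of the 6 lines and Cont5-1 the second, while Cont2-3 lay within the range of the MYBPAR lines. Feature 2, whose relation to feature 1 is not given in the sources used here, read 11.18, 6.29 and 9.40 in Cont1-1, Cont2-3 and Cont5-1 and 6.58, 7.74 and 6.05 in PAR18-2, PAR9-2 and PAR36-4. Both features therefore put Cont1-1 first and Cont5-1 second and on both features the groups overlapped. On feature 1 Cont1-1 exceeded Cont2-3 by 4.88, or 29.4-fold on the RMA scale, although both lines carried the empty vector. The range over the 6 arrays was 5.0 for feature 1 and 5.13 for feature 2, the 63rd and 55th largest of the 37118 features. For feature 2, the values of PAR18-2, PAR36-4 and Cont2-3 were below 7.08 and may be background, so its range and rank are less certain than those of feature 1.

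Between the groups, HSFA2 did not pass the test. The mean of feature 1 was 8.42 ± 0.63 (SD, n = 3) over MYBPAR lines. Over empty vector lines it was 10.16 ± 2.45 (SD, n = 3), and the log2 difference was -1.74 (SE 1.17, 95% interval -4.56 to 1.08; limma, Benjamini-Hochberg adjusted p = 0.915). For feature 2 the log2 difference was -2.16 (SE 1.21, 95% interval -5.09 to 0.76; limma, adjusted p = 0.915). An exact permutation test of the 3 against 3 lines, two-sided, gave p = 0.3 for each feature, where the smallest p that it can give is 0.1. Without Cont1-1 the differences were -0.46 and -1.05 (limma, adjusted p = 0.888 and 0.833) over the other 5 lines. Without Cont2-3 instead they were -2.90 and -3.50 (limma, adjusted p = 0.979 and 0.885).

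**Figure D1:**
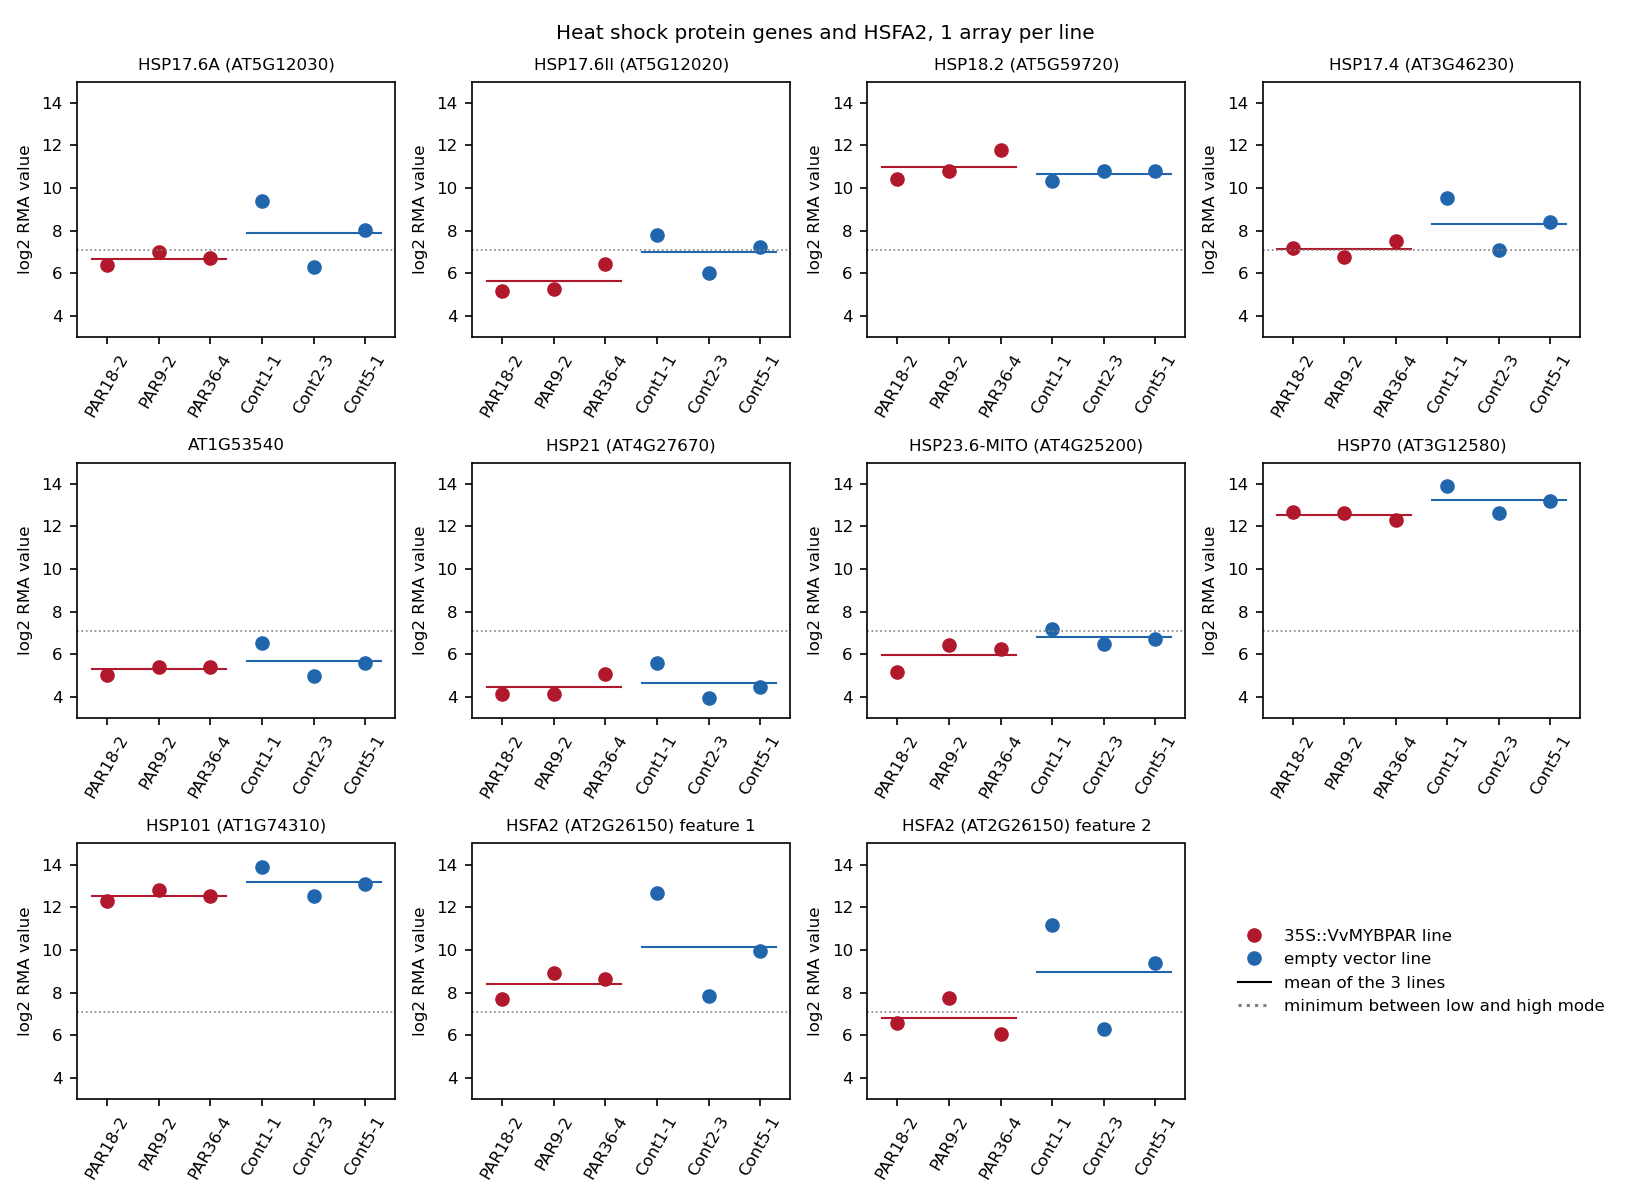
Log2 RMA value (y axis) of the 11 member features in each of the 6 lines (x axis), with 1 point per array, red for 35S::VvMYBPAR and blue for empty vector lines, horizontal lines for group means and a dotted line at 7.08, where the dim and bright modes separate. Cont1-1 is the highest point in every panel except that of HSP18.2, where PAR36-4 is highest at 11.80.

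The class II small heat shock proteins of the cytosol, HSP17.6A (AT5G12030) and HSP17.6II (AT5G12020), are encoded by neighbouring genes on chromosome 5. HSP17.6A read 9.38 in Cont1-1, 6.31 in Cont2-3 and 8.04 in Cont5-1, and 6.39, 6.98 and 6.71 in PAR18-2, PAR9-2 and PAR36-4. HSP17.6II read 7.81, 5.99 and 7.25 in the same order of empty vector lines, and 5.16, 5.24 and 6.45 in the MYBPAR lines. In both genes Cont1-1 and Cont5-1 were the 2 highest lines and were the only lines above the separation of the modes, while Cont2-3 was the lowest line for HSP17.6A and lay among the MYBPAR lines for HSP17.6II. The log2 difference was -1.21 (SE 0.73; limma, adjusted p = 0.915) for HSP17.6A and -1.40 (SE 0.55; limma, adjusted p = 0.915) for HSP17.6II. Without Cont1-1 they were -0.48 and -1.0, and without Cont2-3 they were -2.01 and -1.91. HSP17.6II had the smallest unadjusted p of the members, 0.0422 in the limma fit over 6 arrays, with a 95% interval of -2.73 to -0.07 that is not adjusted for the number of features.

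The class I small heat shock proteins, also of the cytosol, did not share 1 order of lines. HSP17.4 (AT3G46230) read 9.52, 7.09 and 8.39 in Cont1-1, Cont2-3 and Cont5-1 and 7.17, 6.76 and 7.51 in PAR18-2, PAR9-2 and PAR36-4, again with Cont1-1 first and Cont5-1 second. AT1G53540 had the same first and second lines, but all its values, 4.99 to 6.51, were in the dim mode. HSP18.2 (AT5G59720) read 10.33, 10.80 and 10.81 in the empty vector lines and 10.44, 10.79 and 11.80 in the MYBPAR lines, in the same order. Here Cont1-1 was the lowest line and PAR36-4 the highest, 0.99 above the next. HSP18.2 was the only member with a group difference above 0, at 0.36 (SE 0.36; limma, adjusted p = 0.919), and without PAR36-4 it was -0.03. For HSP17.4 the log2 difference was -1.19 (SE 0.59; limma, adjusted p = 0.915), and for AT1G53540 it was -0.41 (SE 0.38; limma, adjusted p = 0.915). Leaving out Cont1-1 gave -0.59 for HSP17.4 and -0.01 for AT1G53540, and leaving out Cont2-3 gave -1.80 and -0.77.

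Small heat shock proteins of this class resemble each other in sequence. The probe sequences were not analysed here, so whether a probe also read a related transcript was not tested.

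Among the members, the small heat shock proteins of organelles were near background. HSP21 (AT4G27670), which acts in the chloroplast, ranged from 3.96 in Cont2-3 to 5.57 in Cont1-1, with PAR36-4 second at 5.09. All 6 values lay in the dim mode, and the group difference was -0.21 (SE 0.46; limma, adjusted p = 0.954). It was 0.24 without Cont1-1 and -0.56 without Cont2-3. The mitochondrial HSP23.6-MITO (AT4G25200) read 7.19, 6.50 and 6.72 in Cont1-1, Cont2-3 and Cont5-1 and 5.19, 6.42 and 6.27 in PAR18-2, PAR9-2 and PAR36-4. It was the 1 member feature of 11 in which every MYBPAR line was below every empty vector line, a pattern that 3.67% of all features had. The margin was narrow, 6.42 in PAR9-2 against 6.50 in Cont2-3, and 5 of the 6 values were below the separation of the modes. Its log2 difference was -0.84 (SE 0.36; limma, adjusted p = 0.915), or -0.46 without PAR18-2, its lowest line.

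HSP70 (AT3G12580) and HSP101 (AT1G74310) were far above background on every array. HSP70, a cytosolic chaperone whose transcript rises in heat, read 13.91 in Cont1-1, 12.65 in Cont2-3 and 13.18 in Cont5-1, and 12.69, 12.63 and 12.29 in PAR18-2, PAR9-2 and PAR36-4. HSP101, the disaggregase that seedlings need for acquired thermotolerance, read 13.89, 12.52 and 13.12 and 12.28, 12.83 and 12.55 in the same order. Cont1-1 and Cont5-1 were the highest 2 lines for both genes, and Cont2-3 lay within the range of the MYBPAR lines. The group difference was -0.71 (SE 0.32, 95% interval -1.49 to 0.06; limma, adjusted p = 0.915) for HSP70 and -0.62 (SE 0.35, 95% interval -1.47 to 0.23; limma, adjusted p = 0.915) for HSP101. Without Cont1-1 these were -0.38 and -0.26, and without Cont2-3 they were -1.01 and -0.95.

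Taken over the set, 10 of the 11 member features had a log2 difference below 0, as did 46.3% of all features, and the member median was -0.84 against 0.02 over all features. The median was -0.46 without Cont1-1 and -1.01 without Cont2-3. None of the 11 passed limma at an adjusted p of 0.05 in either direction. Across all features 0% passed as lower and 0.00539%, 2 features, as higher. At an unadjusted p under 0.05, 1 member feature was lower in the limma fit, where 1.91% of all features were, and 0 were by a linear model with no moderation. In either direction, the count without Cont2-3 was 8 of 11 member features, beside 1699 of all 37118. It was 0 without Cont1-1, without Cont5-1 and without PAR18-2, beside 1660, 1216 and 3038 of all features. With the replicate number as a block it was 3 (2189 of all), and with a trended robust eBayes 2 (1598 of all). Without PAR9-2 the member median was -0.99 and none passed at the adjusted threshold. Member features are not independent replicates, since they were read in the same 6 samples.

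**Figure D2:**
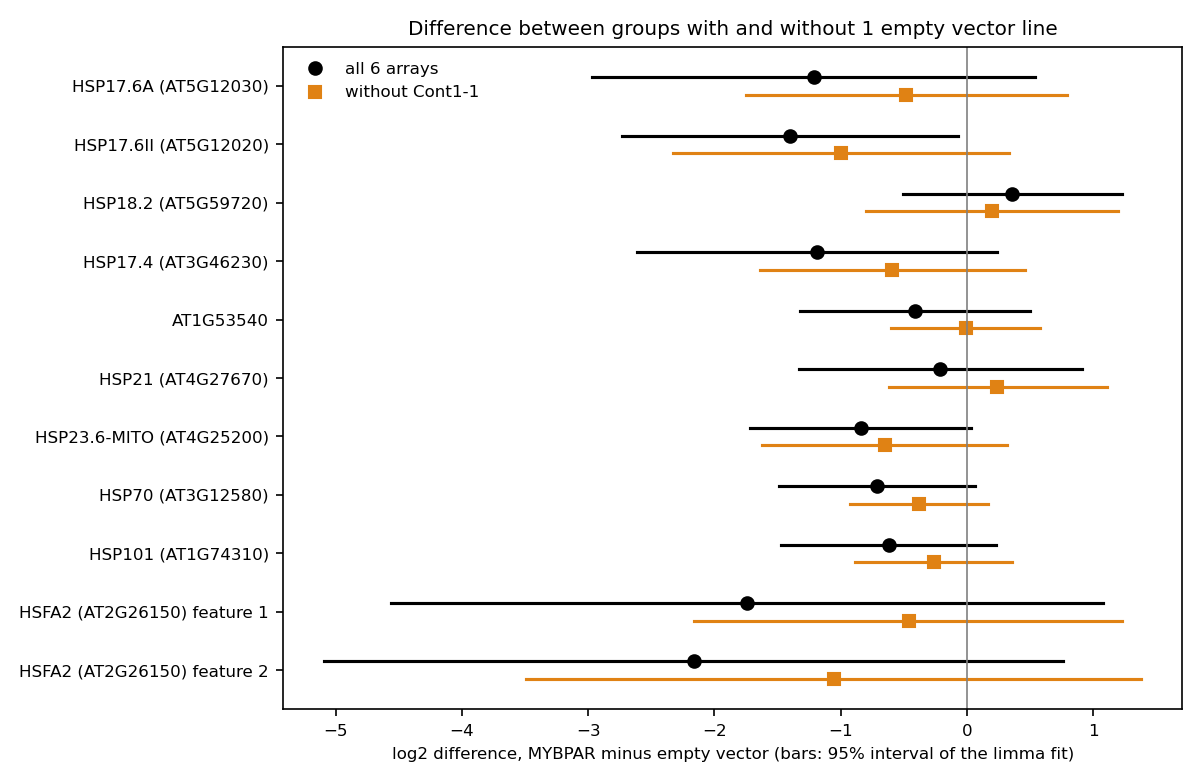
Log2 difference, MYBPAR minus empty vector (x axis), of each member feature (y axis), with bars for the 95% interval of the limma fit, in black over all 6 arrays and in orange without the empty vector line Cont1-1. Leaving out Cont1-1 moved the value of HSFA2 feature 1 from -1.74 to -0.46, and every interval without it includes 0. Leaving out Cont2-3 instead, which is not drawn, moved that value to -2.90.

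Except for HSP18.2 and HSP23.6-MITO, the members ranged more widely among the empty vector lines than among the MYBPAR lines. How many of all features did so was not counted, and the member features were read in the same 6 samples. The range was 1.35 in MYBPAR and 0.48 in empty vector lines for HSP18.2, and 1.24 and 0.69 for HSP23.6-MITO. Cont1-1 was the highest of the 6 lines in 10 of the 11 member features, a place it held in 17.6% of all features. In 9 of the 11, Cont1-1 was highest and Cont5-1 second, an order found in 2.54% of all features. Cont1-1 exceeded every other line by at least 1 in 4 member features, both of HSFA2 and those of HSP17.6A and HSP17.4, and in 0.194% of all features, 72 in number. The range over the 6 lines was at least 2 in 6 member features and in 3.06% of all features, and its median was 2.00 for members and 0.56 overall. With arrays centred on their medians Cont1-1 was again highest in 10 of the 11. Because the members were chosen with earlier results of these data known, the shares over all features are descriptions and give no independent support.

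Comparing single lines gave the same order. Cont1-1 and Cont2-3 differed by at least 1 in 9 of the 11 member features and in 5.28% of all features, and Cont1-1 was higher in 10 of the 11, by a median of 1.61. Cont1-1 and Cont5-1 differed by that much in 5 member features and in 5.25% of all. Cont2-3 and Cont5-1 did so in 5 member features and in 2.19% of all, with Cont5-1 higher in all 11, though by only 0.01 in HSP18.2. The shares over all features hold differences in either direction, and shares by direction were not counted. By the number of member features that differed by at least 1, the MYBPAR lines lay closer together. PAR18-2 differed by at least 1 from PAR9-2 in 3 of the 11 (5.41% of all features) and from PAR36-4 in 3 (5.16%), and PAR9-2 differed from PAR36-4 in 3 (3.47%). In 7 of the 11 member features, Cont2-3 lay inside the range of the MYBPAR lines. The share of all features with Cont2-3 there was not counted, so the 7 are not shown to be particular to the members. These are descriptions of single arrays, because 1 array per line leaves line, culture and array without replicates.

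Other heat stress and chaperone genes were taken as lists, with 1 feature per locus. Of 89 loci in 8 lists, 88 were measured, and the exception was AT4G36990. None of the 88 passed limma in either direction, 45 had log2 differences below 0 (46.3% of all features did), and 4 were lower at an unadjusted p under 0.05 (1.91% of all). The 45 are near the share over all features. In 6 of the 88 every MYBPAR line was below every empty vector line (3.67% of all features). Cont1-1 was highest in 31 (17.6% of all), and highest with Cont5-1 second in 15 (2.54% of all).

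Among the other small heat shock proteins, most loci had the member order of lines. Of 10 loci, 9 had differences below 0 (46.3% of all features did), and the median of the 10 was -0.36. ATHSP22.0, AT5G37670 and AT2G19310 were close to 0, at -0.04, -0.04 and -0.02. In 6 of the 10, Cont1-1 was highest and Cont5-1 second (2.54% of all features). AT1G59860 read 12.05 in Cont1-1, 8.70 in Cont2-3 and 9.80 in Cont5-1, and 8.93, 9.09 and 9.40 in PAR18-2, PAR9-2 and PAR36-4, so that MYBPAR minus empty vector was -1.05 (SE 0.80; limma, adjusted p = 0.915). AT1G07400 read 10.89, 8.62 and 9.54 and 8.28, 8.79 and 9.05 in that order, and AT5G51440 read 10.64, 8.32 and 9.74 and 8.38, 8.97 and 9.33. All 3 had Cont1-1 first and Cont5-1 second, and in all 3 the groups overlapped. The endoplasmic reticulum protein ATHSP22.0 was in the dim mode on every array.

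Among 19 other heat shock factors, the differences had a median of -0.09 and 13 were below 0, as were 46.3% of all features. HSFA7A, another heat-induced factor, read 11.21, 8.18 and 9.66 in Cont1-1, Cont2-3 and Cont5-1 and 7.85, 8.28 and 8.45 in PAR18-2, PAR9-2 and PAR36-4, with a group difference of -1.49 (SE 0.72; limma, adjusted p = 0.915). AT-HSFA7B was highest in Cont1-1 at 6.98 but lay in the dim mode throughout. HSFA6B, a factor of abscisic acid and drought responses, had its highest value in Cont1-1, 10.47, and its lowest in Cont5-1, 6.60. HSFB2A, of the B class of factors that lack the activation domain of class A, had the smallest p of the list. It read 10.01, 9.59 and 9.48 in the empty vector lines and 9.30, 8.77 and 8.59 in the MYBPAR lines, with no overlap, and the difference was -0.80 (SE 0.23; limma, adjusted p = 0.915). The constitutively expressed master factors HSFA1A (HSF1 in RefSeq), HSFA1B (HSF3), HSFA1D and HSFA1E had differences of -0.18, -0.09, 0.27 and 0.09.

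In the list of 17 cochaperones and heat response genes, the differences had a median of -0.35 and 13 were below 0 (46.3% of all features were). Hop3, a cochaperone that links HSP70 to HSP90, had features that read 12.84, 11.41 and 11.84 (feature 2) and 12.47, 9.01 and 10.63 (feature 1) in Cont1-1, Cont2-3 and Cont5-1. In PAR18-2, PAR9-2 and PAR36-4 they read 11.05, 11.23 and 11.19, and 8.92, 9.45 and 9.57. Both features had Cont1-1 first and Cont5-1 second, and feature 2, the brighter one, separated the groups (log2 difference -0.87, SE 0.35; limma, adjusted p = 0.915). MBF1C, a coactivator needed for thermotolerance, read 13.51, 11.85 and 13.08 in the empty vector lines and 11.76, 12.39 and 12.39 in the MYBPAR lines, with Cont2-3 among the MYBPAR lines. 

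The other chaperone lists had smaller ranges. The 10 other HSP70 proteins had a median range over the 6 lines of 0.41 and a median difference of 0.10, and none had Cont1-1 first with Cont5-1 second. HSP70T-2 had the smallest p among them, with a difference of -0.42 (SE 0.17; limma, adjusted p = 0.915). In the HSP90 list 6 of 7 genes had ranges between 0.20 and 0.58. The exception was the heat-inducible HSP90.1, which read 12.99, 11.67 and 12.17 in Cont1-1, Cont2-3 and Cont5-1 and 11.49, 11.80 and 11.48 in PAR18-2, PAR9-2 and PAR36-4, with a difference of -0.68 (SE 0.33; limma, adjusted p = 0.915). The 4 other Clp and HSP100 genes had ranges of 0.04 to 0.44, with HSP93-III at a difference of 0.15 (SE 0.12). The 7 chaperonins had ranges of 0.23 to 0.56. All 7 differences were above 0, from 0.08 to 0.24, where 46.3% of all features were below 0. HSP60-3A was at 0.22 (SE 0.10; limma, adjusted p = 0.915). The mean deviation of the chaperonins was largest in PAR9-2, at 0.20. The 14 genes of endoplasmic reticulum chaperones and the unfolded protein response had a median range of 0.26 and a largest range of 0.88, with CRT1b at a difference of 0.13 (SE 0.10).

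**Figure D3:**
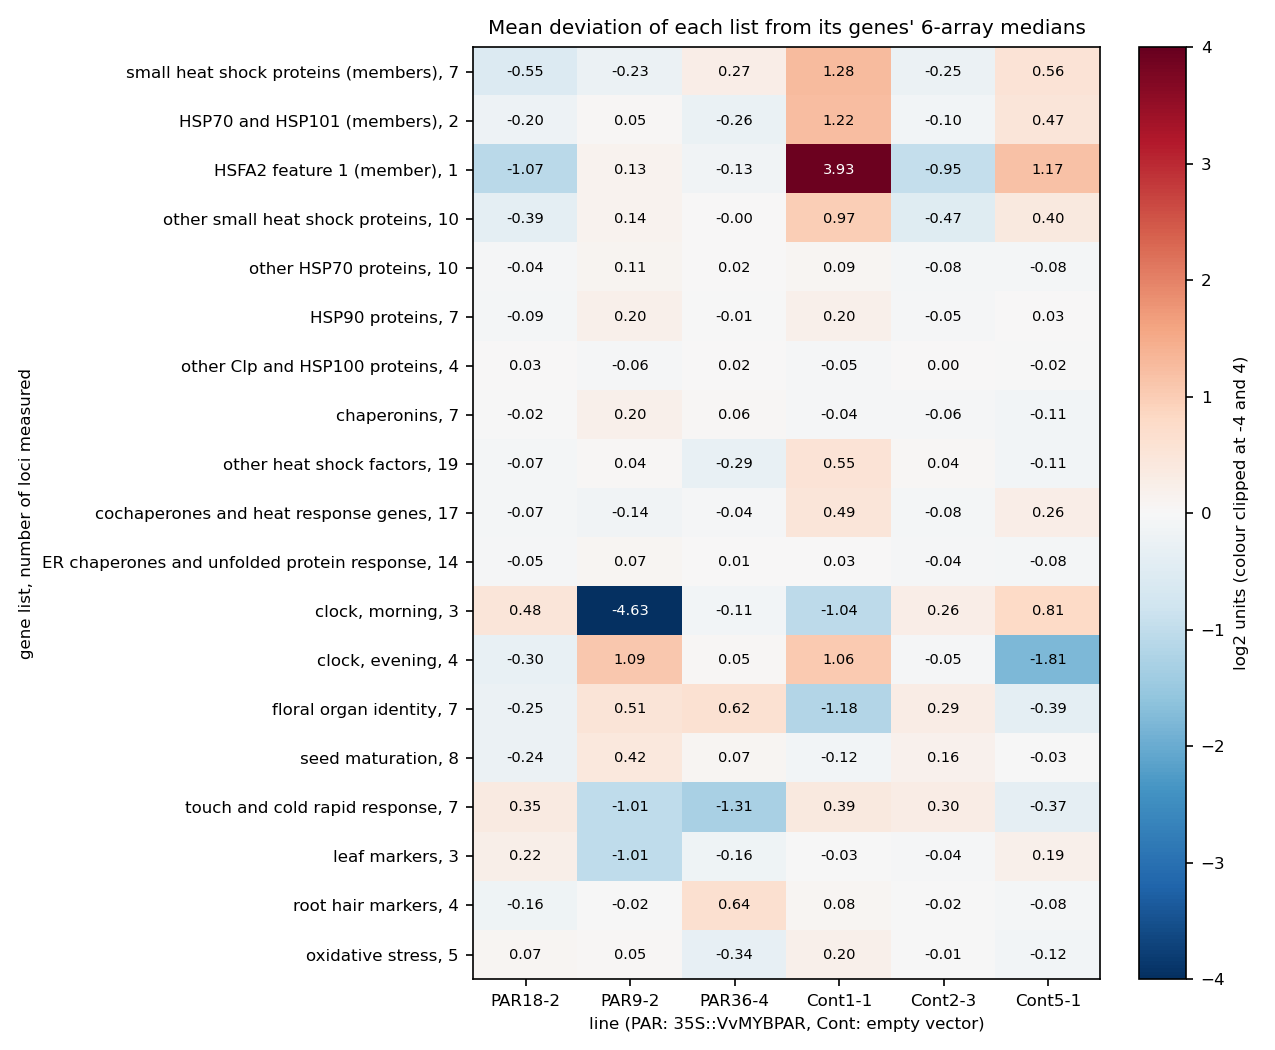
Mean log2 deviation of each gene list (y axis, with the number of loci measured) from its genes' medians over 6 arrays, in each line (x axis), with the value printed in each cell and shown in colour. The member lists are highest in Cont1-1, with 3.93 for HSFA2 feature 1, 1.28 for the small heat shock proteins and 1.22 for HSP70 and HSP101, whereas chaperonins and endoplasmic reticulum chaperones stay between -0.11 and 0.20 in every line.

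The features most like HSFA2 were sought among 3642 features that were no member and had an SD of at least 0.5 over the 6 lines. By Pearson's r with HSFA2 feature 1 over 6 arrays, the first 5 were Hop3 feature 1 (r = 0.994), AT1G54050 (r = 0.990), AT1G07400 (r = 0.986), HSFA7A (r = 0.982) and AT1G59860 (r = 0.978). All 5 were on the lists of small heat shock proteins, heat shock factors or heat response genes, and AT1G54050 is a small heat shock protein of class III. Those lists were chosen with earlier results of these data known, so their presence there gives no independent support. The share of the 3642 features on the lists was not counted. Cont1-1 and Cont5-1 were the lines farthest from the median of HSFA2. Over the other 4 arrays, r was 0.95, 0.82, 0.80, 0.79 and 0.73 in the same order. Ranks gave Spearman's rho of 0.94 for the first 4 and 0.89 for AT1G59860. These values describe 6 arrays of 1 slide and carry no test.

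Against the mean of the 9 heat shock protein members, the first 5 were AT1G07400 (r = 0.992), AT5G54165 (r = 0.988), HSFA7A (r = 0.985), Hop3 feature 1 (r = 0.982) and PDF1.4 (r = 0.973). Over the 4 arrays without Cont1-1 and Cont5-1, r was 0.98, 0.94, 0.96, 0.86 and 0.87 in that order. AT5G54165 was in the dim mode on all 6 arrays, with 6.94 in Cont1-1 and 6.02 in Cont5-1 against 4.18 to 5.31 elsewhere. PDF1.4, a gene of the plant defensin family, read 8.70 in Cont1-1 and 8.33 in Cont5-1, and 7.28 to 7.79 in the other lines. Within the set, r with HSFA2 feature 1 was 0.99 for HSP17.6A, AT1G53540 and HSP101, 0.94 for HSFA2 feature 2, 0.77 to 0.92 for HSP17.6II, HSP17.4, HSP21, HSP23.6-MITO and HSP70, and -0.35 for HSP18.2.

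**Figure D4:**
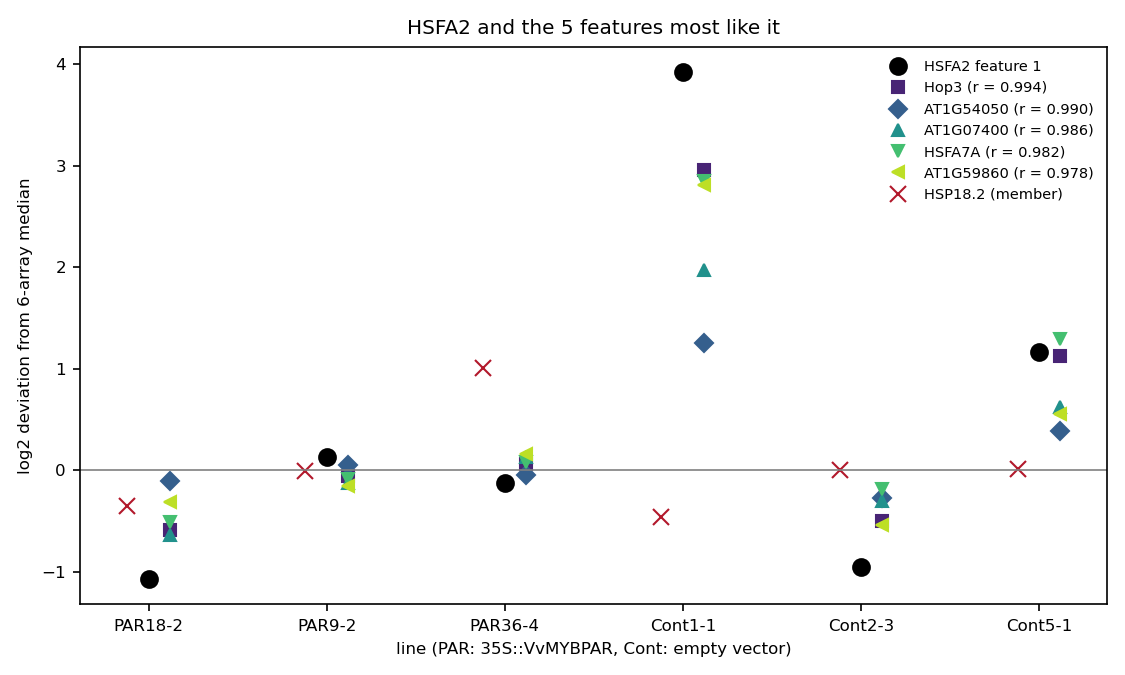
Log2 deviation from the 6-array median (y axis) in each line (x axis) for HSFA2 feature 1 (black), the 5 features with the highest Pearson's r with it (green to purple, r in the legend) and the member HSP18.2 (red crosses). All 6 of the first are highest in Cont1-1 and second in Cont5-1, and HSP18.2 is highest in PAR36-4 and lowest in Cont1-1.

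Lists that describe the state and organ makeup of the plants were read beside these results. Relative to the 6-array medians, Cont1-1 had the lowest mean of the 7 floral organ identity genes, at -1.18, and Cont5-1 was next at -0.39. The summed RMA values of these 7 genes were 6729 to 11486 in the MYBPAR lines and 3649 to 8478 in the empty vector lines. The clock genes deviated in opposite directions in Cont1-1 and Cont5-1, and PAR9-2 shared the direction of Cont1-1. The mean of 4 evening genes (TOC1, ELF4, LUX and GRP7) was 1.06 in Cont1-1 and -1.81 in Cont5-1, and that of the 3 morning genes was -1.04 and 0.81. In PAR9-2 the evening mean was 1.09 and the morning mean -4.63. Summed values were 25218 to 55285 against 9914 to 51683 for the evening genes and 517 to 18250 against 7065 to 24243 for the morning genes, MYBPAR lines first. The part of flowering state and of clock phase in the heat shock values was not tested.

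Genes that respond fast to touch and cold differed in another way, with means of -1.31 in PAR36-4 and -1.01 in PAR9-2 and between -0.37 and 0.39 in the other lines. Their summed values were 27178 to 84053 in the MYBPAR and 70545 to 92861 in the empty vector lines. Small heat shock proteins are also made in maturing seeds. Of 8 seed maturation genes, 7 were in the dim mode on all 6 arrays, with summed values of 361 to 579 and 374 to 446. The 3 leaf markers summed to 56861 to 60963 and 54372 to 60304, and the 4 root hair markers to 6046 to 10399 and 6522 to 7192. No leaf or root hair marker was in the dim mode on all arrays. None of the genes in these lists passed limma. Named by the smallest p or a wide range, SEP1 had a log2 difference of 0.74 (SE 0.24), TCH4 one of -1.08 (SE 0.45), CCA1 one of -1.76 (SE 1.43), ELF4 one of 0.95 (SE 1.18) and CAB2 one of -1.14 (SE 0.91). The 5 oxidative stress genes summed to 57782 to 64552 and 54920 to 62286. By the image names, Cont1-1 was at position 3 of the slide, Cont2-3 at position 4 and Cont5-1 at position 10. The part of slide position in the heat shock values was not tested.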

How the data were processed

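Per the submitters' processing notes, the authors made the deposited intensity values with RMA. They are linear, with 1 value for each feature on each array. The sources used here name no RMA version or genome build. The authors' deposited log2 values in the series table equal log2 of these intensities to within 1.66e-06.

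Log2 values of all 37118 features from the 3 MYBPAR and 3 empty vector arrays were fitted without covariates or filters, using lmFit and eBayes of limma 3.58.1 under R 4.3.3. Benjamini-Hochberg adjustment ran over every feature, with 0.05 as the threshold. The fit was tested on simulated data with independent noise, 200 changed features and 5 runs. At the threshold it recovered 47.2% of log2 changes of 1 and 89.6% of those of -2. The changed features were drawn from all features, so recovery for the members, whose ranges were wider, was not measured. Arrays carry no depth, so their number limits the precision.

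Per the labels, replicates came from separate cultures, and each is also a separate line. The p-values therefore measure a spread in which line, culture and array are not separated. Members and gene lists were chosen with earlier results of these data known. The named genes were all member features, the 1 gene of smallest p and those with a range of at least 2 in each list (for the lists on plant state, a selection), and the 5 features most like HSFA2 and the member mean. ATHSP22.0, MBF1C and the HSFA1 genes were named after their values were seen. List loci with several features used the brightest. Symbols come from RefSeq (assembly TAIR10.1), which matched 31993 of 32627 loci. Promoter and protein sequences were not analysed here. The alternatives tried are listed with their effect below.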

Additional observations from a re-analysis of the deposited data

How the results depend on the processing

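None of the 11 member features and none of the 88 other heat and chaperone loci passed limma under any of 14 alternatives. These were leaving out each of the 6 arrays, leaving out the dimmest 25% of features, median-centred arrays, log2(value + 32), a trended robust eBayes, array weights, the values of the series table, the replicate block and, added after the data were seen, no moderation across features. Over all features, 0 to 3 passed. With the replicate number as a block, the member median was -0.84, the smallest member adjusted p was 0.806 (limma) and 0 features passed overall. The deviations of same-numbered lines correlated at 0.30, -0.06 and 0.24, so the numbers were not taken as pairs.

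The sign of the log2 difference held in 149 of 152 member values. HSP21 turned to 0.16 with array weights and ranged from -0.56 to 0.24 when 1 array was left out, and HSP18.2 ranged from -0.03 to 0.64. The member median ranged from -1.01 without Cont2-3 to -0.46 without Cont1-1, and HSFA2 feature 1 from -2.90 to -0.46 without the same lines. Without PAR9-2, the line with low morning clock genes, the member median was -0.99. Leaving out the dimmest 25% removed AT1G53540 and HSP21 and gave -1.19. Of the 10 likeness values, 10 were at least 0.9 by Pearson's r and 9 by Spearman's rho. Promoters and proteins of the members were not analysed here.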

Other observations

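Cont1-1 exceeded every other line by at least 1 on the log2 scale in 72 features (0.194% of all). Of these, 10 belonged to 9 loci of the heat and chaperone lists, and 4 of the 10 were the member features already counted above. In 9 of these 10, Cont5-1 was second, and over the 72 features Cont5-1 was second in 20. On all 6 arrays 33 of the 72 lay in the dim mode. The heat and chaperone lists were chosen with earlier results of these data known, and the share of all features on them was not counted. The genes that follow were chosen after their values were seen. AT1G71000, which was on none of the lists, read 8.93 in Cont1-1. It was in the dim mode in the other 5 lines, at 5.08 to 5.86, so its margin was not measured between signals above background. DREB2A, a transcription factor of drought and heat responses, read 13.55 in Cont1-1 and 11.41 in Cont5-1 on feature 2, with the other lines between 11.60 and 12.27, so it shared the high value of Cont1-1 but not that of Cont5-1.

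The plant defensin genes PDF1.3 and PDF1.2b were also highest in Cont1-1, at 12.44 and 10.86, but their second line was PAR9-2, at 10.86 and 9.40. Cont5-1 read 10.35 and 8.80, Cont2-3 9.62 and 7.90, and PAR18-2 and PAR36-4 were lowest, at 8.10 and 8.28 for PDF1.3 and 6.60 and 6.82 for PDF1.2b. PDF1.3 and PDF1.2b did not pass the comparison of the groups (log2 differences -1.72 and -1.58; limma, adjusted p = 0.915 for both), and the differences between single lines carry no test.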
